A study of Mus musculus with 14 samples.

Results

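The phosphoinositide 3-kinase (PI3K), Akt and mTORC1 genes were a set of 42 genes named by symbol, and 41 of them were found among the 14217 genes of the deposited table. CASTOR1 was not a symbol there. The row that RefSeq names Castor1 carries the older symbol GATSL3 and is described beside the members. Of a symbol's several rows, that with the highest mean of the 14 columns stands for the gene. Microglia, macrophages that live in the brain, came from untreated C57BL/6 mice 6 to 8 weeks old. The mice were germ-free (GF, 7 libraries), raised without microorganisms, or specific-pathogen-free (SPF, 7 libraries), with a normal microbiota from which listed pathogens are absent. After a density gradient the cells were sorted as CD11b+ CD45lo, with 1000 cells taken per brain, and the sequencing libraries covered mRNA 3′ ends. The sources do not say whether each library came from its own animal, so p-values measure the spread between these libraries, which may be partly technical. The comparison asked whether the genes of the pathway differed between GF and SPF microglia, in which DDIT4, an inhibitor of mTORC1, stood higher in GF.

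As background, class I PI3K turns a membrane lipid into a docking site for the kinases PDK1 and Akt when a receptor is stimulated. Akt phosphorylates the FoxO transcription factors, GSK3 and the TSC complex, and this releases the small GTPase Rheb to activate mTORC1 on the lysosome. A separate input from amino acids reaches mTORC1 through the Rag GTPases, while the kinase AMPK and the proteins DDIT4 and Sestrin restrain it. In macrophages, microglia included, the pathway acts downstream of CSF1R and other surface receptors, and it couples nutrient supply to growth and metabolism. Most of its control is by phosphorylation, which transcript levels do not show.

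Values are called normalized counts, as scaled per library by the authors. Depth was between 680082 and 1190253 read equivalents in GF libraries and between 907568 and 1634679 in SPF libraries, with GF 6 the lowest of GF and SPF 2 the lowest of SPF. Between 22.8% and 27.6% of genes were listed at 0 in GF libraries, against 19.3% to 23.7% in SPF libraries. The 12 microglia markers were all present, with a summed level of 56947 to 65713 in GF and 55537 to 63283 in SPF. Taken singly, 2 of the 12 rose and 4 fell (limma, adjusted p under 0.05), where 3.68% of all genes tested rose and 3.07% fell. The similar sums thus do not mean that each marker was unchanged. Of 8 marker lists for other cells, the oligodendrocyte list passed, with 7 of 8 markers in the table and sums of 209 to 278 in GF against 265 to 320.0 in SPF (log2 difference -0.20, exact permutation p = 0.00524, adjusted p = 0.0420 over the 8 lists). That call was lost on leaving out any of GF 5, 6 and 7 and SPF 1, 2, 4, 5 and 6. Endothelial markers, 6 of 8 in the table, summed to 17.4 to 84.3 in GF and 66.2 to 98.6 in SPF (exact permutation adjusted p = 0.0808), and CLDN5, a defining marker, was listed at 0 in every library. Border macrophage markers, 5 of 7 in the table, summed to 0 to 21.8 in GF and 2.83 to 40.2 in SPF (exact permutation adjusted p = 0.0808). Neuronal markers, 9 of 10 in the table, summed to 27.1 to 69.7 in GF and 40.5 to 67.1 in SPF, with MTAP2 listed at 0 throughout (exact permutation adjusted p = 0.118). Erythroid markers summed to 67.5 to 4216 in GF, where GF 6 alone was high, and to 63.4 to 122 in SPF. Astrocyte markers summed to 156 to 265 in GF and 165 to 257 in SPF, lymphocyte markers to 52.7 to 106 in GF and 53.6 to 112 in SPF, and monocyte and neutrophil markers to 0 to 12.5 in GF and 0 to 11.5 in SPF. The part of these differences in the results on the members was not tested. In bulk samples such as these, fewer cells of a type and less RNA per cell cannot be told apart.

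DDIT4, also called REDD1, which holds mTORC1 back through the TSC complex, was far higher in GF microglia. It stood at 232, 420.2, 140.5, 116, 1027, 785 and 501 normalized counts in GF 1 to 7, against 39.8, 21.3, 22.1, 12.5, 72.9, 70.1 and 48.0 in SPF 1 to 7. The groups did not overlap, and within GF the levels spread widely, with GF 5 and GF 6 high and GF 3 and GF 4 low. DDIT4 rose 9.72-fold once a pseudocount of 1.44 was added to each value (95% confidence interval 5.42 to 17.4), a log2 difference of 3.28 ± 0.41 (SE, limma, adjusted p = 1.6e-05). The call held in all 28 other settings, with log2 differences from 3.02 to 3.54. DDIT4 was chosen because its rise was known from earlier results of these data, so these values describe the rise and are no independent support. The promoter windows of Ddit4 and of Sesn2 are shown because Ddit4 is the inhibitor that rose and Sesn2 is the member with the smallest p, and transcription of both is known to respond to stress. They are RefSeq windows of GRCm38.p6, 250 bases before to 50 after the start of the gene, on the minus strand at chr10:59951721-59952020 for Ddit4 and chr4:132510407-132510706 for Sesn2. Capitals mark the match to a motif searched on both strands.
Ddit4: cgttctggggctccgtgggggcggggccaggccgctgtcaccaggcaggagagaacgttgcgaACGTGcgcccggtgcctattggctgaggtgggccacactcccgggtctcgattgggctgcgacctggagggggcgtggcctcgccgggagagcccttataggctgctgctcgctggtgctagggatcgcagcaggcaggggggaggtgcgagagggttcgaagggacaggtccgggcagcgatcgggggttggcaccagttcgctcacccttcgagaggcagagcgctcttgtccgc
Sesn2: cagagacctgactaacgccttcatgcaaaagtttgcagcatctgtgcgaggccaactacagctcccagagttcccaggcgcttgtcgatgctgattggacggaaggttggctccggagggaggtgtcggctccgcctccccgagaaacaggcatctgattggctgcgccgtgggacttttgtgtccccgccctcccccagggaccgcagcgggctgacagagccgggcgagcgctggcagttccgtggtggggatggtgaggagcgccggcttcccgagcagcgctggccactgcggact
The Ddit4 window held 1 match to the core of the hypoxia response element, ACGTG, which starts at base 64 from its 5′ end, and the Sesn2 window held none of the 6 motifs searched. Of 32851 windows of this length, 19.6% held ACGTG. The other motifs were the glucocorticoid receptor half-site AGAACA, in 19.0% of windows, the E-box CACGTG, which contains the hypoxia core, in 7.15%, and the FoxO site TGTTTAC in 3.65%. The cyclic AMP response element TGACGTCA was in 1.79% and the C/EBP-ATF site TGATGNAA in 3.97%. The window of Castor1, not shown, also held 1 match to ACGTG, and 1 of 2 windows of Sesn1 held 1 match to the FoxO site. A match describes these letters and is not evidence of binding.

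None of the members passed the test. Of 35 members whose mean reached 7.22 normalized counts, the level set for a test, 0 rose and 0 fell in GF (limma, Benjamini-Hochberg adjusted p under 0.05 over 8822 genes). Over all genes tested, 6.76% passed, 3.68% higher and 3.07% lower in GF, or 325 and 271 genes, a split of 264 and 330 with upper-quartile scaling. At an unadjusted p under 0.05, 7 of the 35 members (20%) differed, against 21.9% of all genes tested. SESN2, AKT1, STK11 and DEPTOR were the 4 higher in GF and PRKAB1, RPS6KB2 and PIK3R1 the 3 lower. The median log2 difference of the members was 0.04, against -0.02 for all genes, and the median size without sign was 0.259, against 0.288. There were 19 members above 0 and 16 below, from -0.70 for FNIP1 to 1.03 for DEPTOR. In none of the 41 members, tested or not, did the GF libraries lie wholly above or below the SPF libraries, which they did in 192 of the 8822 genes tested. With so small a share over all genes, 0 among the members is no result about them. The remaining 6 members, RRAGB, RRAGD, SESN3, PIK3CA, FOXO3 and PRKAA1, were too low to test.

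**Figure D1:**
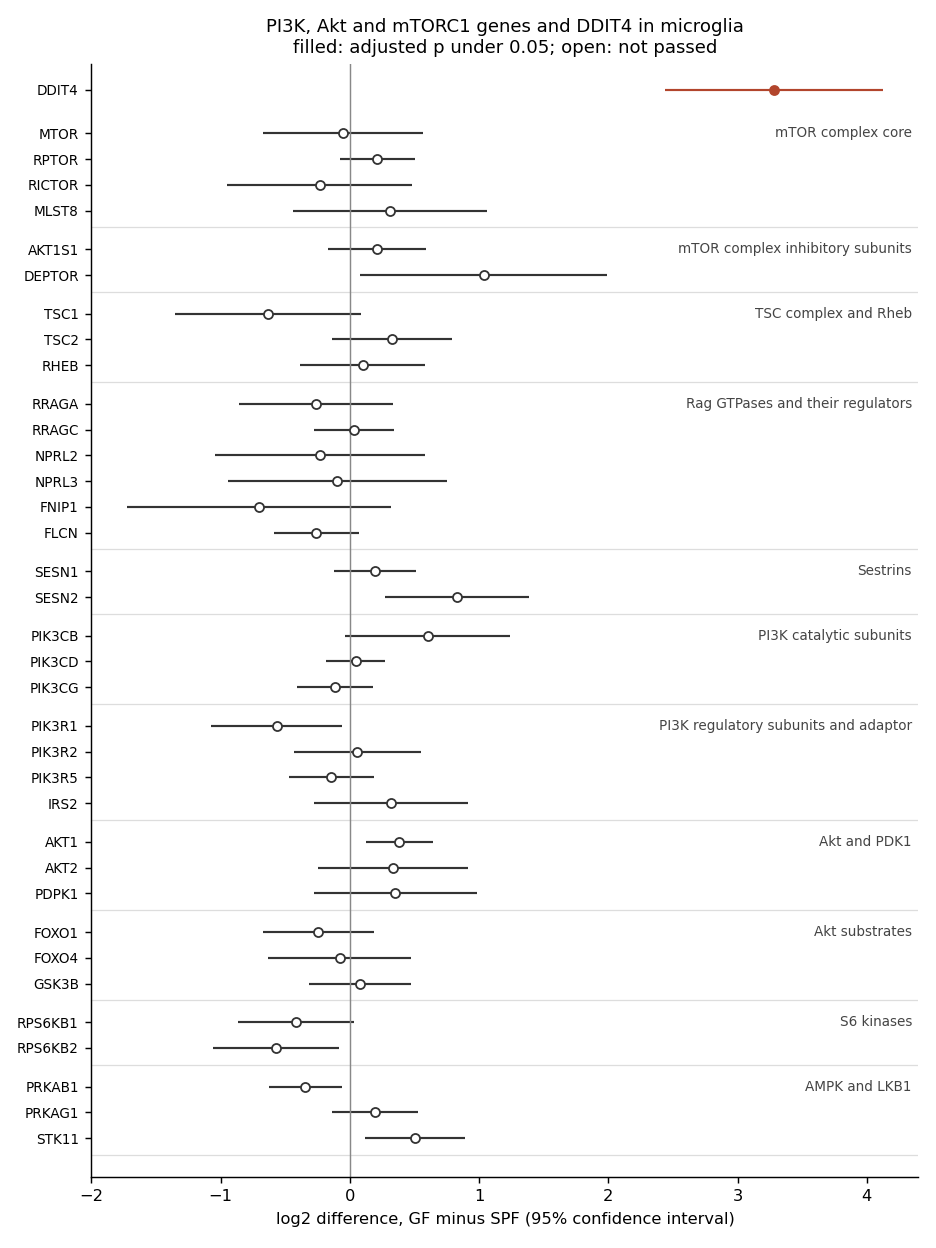
Log2 difference, GF minus SPF, with its 95% confidence interval for DDIT4 and the 35 tested members, which are grouped by role. DDIT4 alone is filled as past the threshold, at 3.28, while the members lie between -0.70 and 1.03. DDIT4 is shown because its rise was already known.

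None of the 3 catalytic subunits of PI3K that could be tested passed. PIK3CD, the p110 delta subunit of white blood cells, had a lowest, median and highest value of 359, 456 and 555 normalized counts in GF and of 344, 444 and 536 in SPF. Its log2 difference was 0.04, with an interval from -0.18 to 0.27. PIK3CG, the p110 gamma subunit that answers G protein-coupled receptors, had 110.3, 134 and 160.2 in GF and 111, 145 and 207 in SPF, a difference of -0.12 with an interval from -0.41 to 0.18. PIK3CB, the p110 beta subunit, stood at 41.6, 33.6, 25.9, 13.1, 26.9, 33.0 and 23.1 in GF 1 to 7, against 30.9, 13.01, 14.4, 22.6, 23.6, 12.1 and 11.3 in SPF 1 to 7. For PIK3CB, 6 of 7 GF libraries lay above the SPF median and the groups overlapped, with a log2 difference of 0.60 ± 0.31 (SE, limma, adjusted p = 0.258). PIK3CA, the p110 alpha subunit, was below the level for a test. Its values were 16.7, 0.989, 0, 9.08, 1.99, 13.9 and 2.10 in GF 1 to 7 and 11.5, 7.10, 7.65, 0.836, 1.35, 8.65 and 6.36 in SPF 1 to 7. Those GF values spread over a wider range than the SPF values and overlapped them.

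The regulatory subunits hold the catalytic subunits stable and bring them to receptors. PIK3R1, which encodes p85 alpha and its short forms, stood at 55.2, 63.3, 19.9, 37.3, 52.7, 71.2 and 49.4 normalized counts in GF 1 to 7, against 76.0, 74.5, 68.0, 39.3, 85.1, 64.0 and 99.6 in SPF 1 to 7. Every GF library lay below the SPF median, yet SPF 3, 4 and 6 were within the GF range, so the groups overlapped. The log2 difference was -0.57 ± 0.25 (SE, limma, adjusted p = 0.172), and no setting called it. PIK3R2, which encodes p85 beta, had 45.1, 82.7 and 144 (lowest, median, highest) in GF and 41.7, 77.8 and 139 in SPF, a log2 difference of 0.06 with an interval from -0.43 to 0.55. PIK3R5, the p101 partner of p110 gamma, had 77.1, 89.5 and 119 in GF and 76.0, 111 and 124 in SPF, a difference of -0.14. The adaptor IRS2, which links insulin and cytokine receptors to PI3K, had 41.5, 84.3 and 146 in GF and 22.9, 76.1 and 109.5 in SPF, a difference of 0.32 with an interval from -0.28 to 0.91. These ranges overlapped over most of their length.

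Akt and PDK1 transcripts were all above 0 on the log2 scale, and none of the 3 passed. AKT1, the gene of the widely expressed Akt isoform, stood at 599.6, 641, 686, 628, 635, 593 and 734 normalized counts in GF 1 to 7, against 648, 523, 504, 620.2, 545, 327 and 377 in SPF 1 to 7. All 7 GF libraries lay above the SPF median, and SPF 1 and SPF 4 reached into the GF range. Its log2 difference was 0.38 ± 0.13 (SE, limma, adjusted p = 0.0657), or 1.30-fold with an interval from 1.09 to 1.56. AKT1 passed when SPF 1 or SPF 4 was left out (limma, adjusted p = 0.0310 and 0.0385), and over all 28 settings its adjusted p ran from 0.0310 to 0.291. AKT2, the isoform best known in insulin signalling, had 22.2, 33.6 and 47.8 in GF and 11.8, 26.1 and 46.0 in SPF, a difference of 0.34 with an interval from -0.24 to 0.92. PDPK1, which encodes PDK1, the kinase that activates Akt at the membrane, had 16.9, 17.8 and 25.9 in GF and 11.0, 12.2 and 29.7 in SPF. Its difference was 0.35 with an interval from -0.28 to 0.98. A second, lower row of PDPK1 had 1.05, 6.25 and 12.1 in GF and 4.42, 8.78 and 14.4 in SPF, so its medians lay in the opposite order.

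Among substrates of Akt, the transcription factors FOXO1, FOXO3 and FOXO4 leave the nucleus when Akt phosphorylates them. FOXO1 stood at 91.6, 52.4, 51.8, 68.6, 47.8, 29.5 and 65.2 normalized counts in GF 1 to 7, against 71.6, 57.9, 87.5, 56.0, 67.5, 63.2 and 61.5 in SPF 1 to 7. The GF range enclosed the SPF range, and the log2 difference was -0.24 ± 0.21 (SE, limma, adjusted p = 0.537). FOXO4 had 19.2, 30.2 and 54.7 in GF and 21.6, 31.9 and 43.3 in SPF, a difference of -0.08 with an interval from -0.63 to 0.47. GSK3B, a kinase that Akt switches off, had 58.7, 74.7 and 90.8 in GF and 43.3, 69.0 and 112 in SPF, a difference of 0.08 with an interval from -0.31 to 0.47. FOXO3 was too low to test, with 5.20, 6.92, 3.98, 0, 0, 0 and 0 in GF 1 to 7 and 6.19, 10.6, 2.55, 2.51, 8.78, 17.3 and 4.95 in SPF 1 to 7. FOXO3 was thus listed at 0 in 4 GF libraries and in no SPF library. GF libraries also had fewer read equivalents (median 1143098 against 1313179) and more genes at 0 (median 24.7% against 22.7%). The part of depth in these zeros was not tested.

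The TSC complex and Rheb, the point at which DDIT4 acts, were not called. TSC1, the scaffold of the complex, stood at 33.3, 27.7, 41.8, 21.2, 13.9, 6.94 and 8.41 normalized counts in GF 1 to 7, against 21.2, 30.7, 47.6, 30.1, 35.8, 19.0 and 30.4 in SPF 1 to 7. GF 5, 6 and 7 lay below every SPF library and GF 1 to 4 within the SPF range, with a log2 difference of -0.63 ± 0.35 (SE, limma, adjusted p = 0.302). TSC2, which carries the activity that shuts off Rheb, had 60.3, 73.2 and 84.6 in GF and 29.6, 61.9 and 90.1 in SPF. Its difference was 0.33 with an interval from -0.14 to 0.79, and the GF libraries lay within the SPF range. RHEB, the GTPase that activates mTORC1, had 33.0, 58.3 and 78.7 in GF and 31.9, 53.0 and 73.1 in SPF, a difference of 0.10 with an interval from -0.39 to 0.58.

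The core of the mTOR complexes was likewise not called in any of 4 genes. MTOR, the kinase itself, had 13.9, 50.5 and 63.3 normalized counts (lowest, median, highest) in GF and 22.6, 46.8 and 72.3 in SPF, a log2 difference of -0.05 with an interval from -0.67 to 0.57. RPTOR, which encodes Raptor, the subunit that defines mTORC1, stood at 382, 265, 273, 195, 323, 438 and 310.2 in GF 1 to 7, against 320.0, 229, 243, 262, 264, 244 and 281 in SPF 1 to 7. GF 6 was the highest and GF 4 the lowest of all 14 libraries, and the log2 difference was 0.21 ± 0.14 (SE, limma, adjusted p = 0.403). RICTOR, which defines mTORC2, had 9.37, 24.2 and 36.6 in GF and 11.9, 26.1 and 41.4 in SPF, a difference of -0.23. MLST8, a subunit of both complexes, had 8.68, 14.1 and 18.9 in GF and 6.06, 11.0 and 18.9 in SPF, a difference of 0.31 with an interval from -0.44 to 1.06. The sign of MTOR turned in 5 of 28 settings and that of RICTOR in 2 of 27, so neither has a direction here. Signs of other members turned as well, as listed with the settings below.

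Of the inhibitory subunits, DEPTOR, which binds mTOR and restrains both complexes, had the largest difference of all members tested and also a wide spread. It stood at 39.6, 19.8, 42.8, 18.2, 19.9, 41.7 and 17.9 normalized counts in GF 1 to 7, against 17.7, 27.2, 0.850, 35.9, 15.5, 6.06 and 13.4 in SPF 1 to 7. Every GF library lay above the SPF median, SPF 2 and SPF 4 overlapped the GF range, and the SPF values ran from under 1 to 35.9. The log2 difference was 1.03 ± 0.46 (SE, limma, adjusted p = 0.189), and no setting called it. AKT1S1, which encodes PRAS40, an mTORC1 inhibitor that Akt releases, had 84.6, 116 and 180.1 in GF and 74.2, 109 and 158 in SPF, a difference of 0.21 with an interval from -0.17 to 0.59.

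The Rag GTPases, which bring mTORC1 to the lysosome when amino acids are present, and their regulators had 6 members tested. RRAGA had 11.9, 25.9 and 48.9 normalized counts (lowest, median, highest) in GF and 18.4, 28.9 and 39.2 in SPF, a log2 difference of -0.26. RRAGC, which pairs with it, had 97.8, 134 and 156 in GF and 98.2, 123 and 167 in SPF, a difference of 0.03 with an interval from -0.28 to 0.34. Both GF ranges overlapped the SPF ranges almost fully. RRAGB and RRAGD, the paralogs of these GTPases, were below the level for a test. RRAGB was listed at 0 in every GF library and in 6 SPF libraries, with 5.10 in SPF 3. RRAGD was listed at 0 in 5 GF libraries, with 5.04 in GF 4 and 4.21 in GF 7, and in 2 SPF libraries, with at most 6.36 in SPF 7.

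NPRL2 and NPRL3 are subunits of GATOR1, which switches the Rag GTPases off. NPRL2 had 8.68, 15.9 and 49.3 normalized counts in GF and 5.91, 24.3 and 30.3 in SPF, a log2 difference of -0.23 with an interval from -1.04 to 0.58. NPRL3 had 6.92, 11.5 and 25.2 in GF and 4.95, 15.3 and 23.0 in SPF, a difference of -0.10 with an interval from -0.94 to 0.75. FLCN, folliculin, and its partner FNIP1 form a complex that acts on the RRAGC and RRAGD proteins. FLCN stood at 142, 152, 116, 129, 132, 67.7 and 127 in GF 1 to 7, against 124, 131, 155, 139, 152, 136 and 180.2 in SPF 1 to 7. GF 6, the shallowest library, was far below the others, and the log2 difference was -0.26 ± 0.16 (SE, limma, adjusted p = 0.359). FNIP1 had 1.99, 10.9 and 21.8 in GF and 5.30, 17.0 and 28.9 in SPF, a difference of -0.70 with an interval from -1.72 to 0.32. GATSL3, the Castor1 gene, which encodes an arginine sensor that restrains mTORC1, stood at 23.9, 34.6, 17.9, 32.3, 38.8, 19.1 and 23.1 in GF 1 to 7, against 9.73, 20.1, 19.5, 7.52, 8.78, 14.7 and 29.0 in SPF 1 to 7. All 7 GF libraries of GATSL3 lay above the SPF median and SPF 2, 3 and 7 reached into the GF range, with a difference of 0.82 ± 0.33 (SE, limma, adjusted p = 0.135), and no setting called it.

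Sestrins are stress-induced proteins that restrain mTORC1, and Sestrin 2 senses leucine. SESN2 stood at 39.6, 29.7, 34.9, 42.4, 59.7, 33.0 and 34.7 normalized counts in GF 1 to 7, against 26.5, 14.2, 31.4, 12.5, 35.1, 19.9 and 16.3 in SPF 1 to 7. All 7 GF libraries lay above the SPF median, and SPF 3 and SPF 5 reached into the GF range. SESN2 had the smallest adjusted p of the members, with a log2 difference of 0.83 ± 0.27 (SE, limma, adjusted p = 0.0655), or 1.78-fold with an interval from 1.21 to 2.62. It passed when SPF 5 was left out (limma, adjusted p = 0.0462), and over all 28 settings its adjusted p ran from 0.0462 to 0.168. SESN1 had 159, 196 and 283 in GF and 143, 170.3 and 277 in SPF, a difference of 0.20 with an interval from -0.12 to 0.52. SESN3 was too low to test, with 0 to 9.08 in GF, 3 libraries at 0, and 0 to 7.65 in SPF, 2 libraries at 0.

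The S6 kinases, through which mTORC1 raises translation, were both below 0 on the log2 scale and neither passed. RPS6KB2, which encodes S6K2, stood at 72.9, 42.5, 70.7, 42.4, 33.8, 97.2 and 64.1 normalized counts in GF 1 to 7, against 70.7, 130.1, 45.9, 80.2, 91.9, 90.0 and 119 in SPF 1 to 7. GF 6 alone lay above the SPF median, and the groups overlapped. The log2 difference was -0.57 ± 0.24 (SE, limma, adjusted p = 0.155), and no setting called it. RPS6KB1, which encodes S6K1, had 31.3, 38.3 and 68.2 in GF and 38.5, 55.8 and 78.1 in SPF, a difference of -0.42 with an interval from -0.86 to 0.03. A second row of RPS6KB1, with 0, 6.94 and 19.9 in GF and 0, 0.884 and 13.8 in SPF, had its medians in the opposite order.

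AMPK, the energy sensor that restrains mTORC1, and its activator LKB1 gave values in both directions. STK11, which encodes LKB1, stood at 91.6, 121, 131, 64.6, 91.6, 93.8 and 156 normalized counts in GF 1 to 7, against 104, 50.9, 73.1, 70.2, 68.9, 72.3 and 76.3 in SPF 1 to 7. GF 4 lay among the SPF libraries and SPF 1 among the GF libraries. The log2 difference of STK11 was 0.51 ± 0.19 (SE, limma, adjusted p = 0.108), and it passed without GF 4 (limma, adjusted p = 0.0408, range over the 28 settings 0.0408 to 0.327). PRKAB1, the beta 1 subunit of AMPK, stood at 135, 113, 116, 131, 90.6, 144 and 107 in GF 1 to 7, against 191, 149, 155, 149, 149.9, 133 and 134 in SPF 1 to 7. Every GF library of PRKAB1 lay below the SPF median, with SPF 6 and SPF 7 inside the GF range. Its log2 difference was -0.34 ± 0.14 (SE, limma, adjusted p = 0.135), and it passed where trends with transcript length and GC content were removed (limma, adjusted p = 0.0459, range over the 28 settings 0.0459 to 0.248). PRKAG1, the gamma 1 subunit that binds AMP, had 133, 152 and 225 in GF and 96.0, 122 and 206 in SPF, a difference of 0.20 with an interval from -0.14 to 0.53. PRKAA1, the alpha 1 catalytic subunit, was too low to test, with 16.7, 4.94, 0, 1.01, 1.99, 6.94 and 10.5 in GF 1 to 7. In SPF it was listed at 0 in 5 libraries, with 1.18 in SPF 2 and 8.48 in SPF 7.

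**Figure D2:**
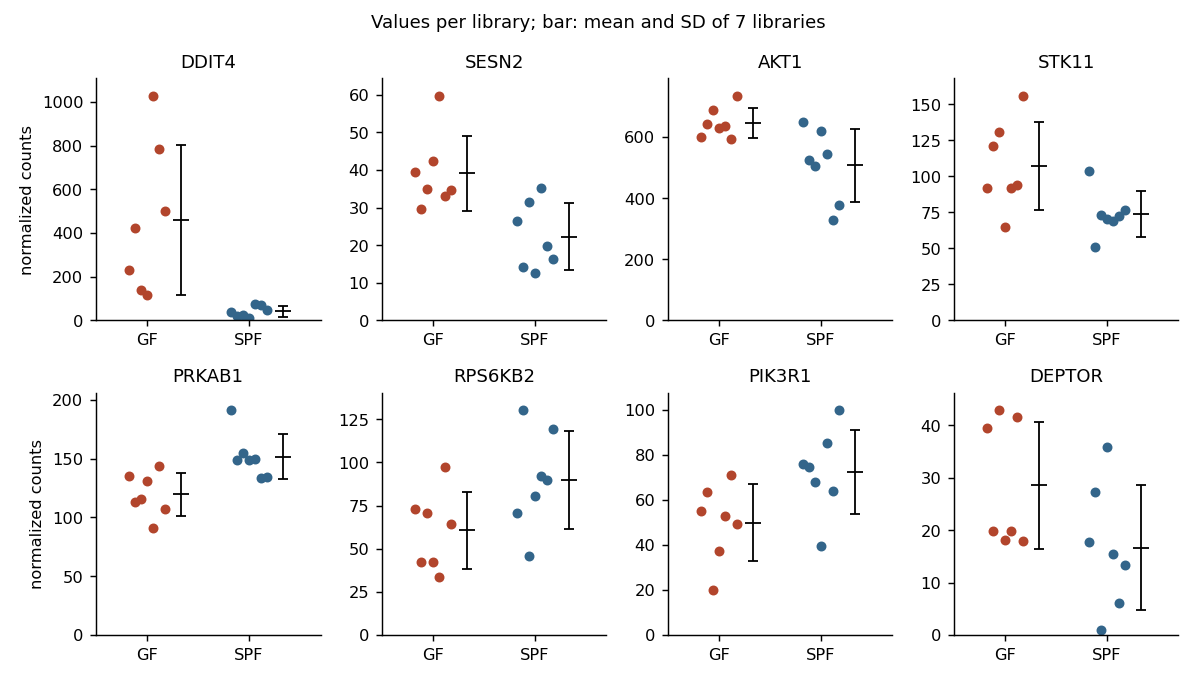
Normalized counts per library of DDIT4 and of the 7 members with an unadjusted p under 0.05, GF left and SPF right; points are libraries in number order and the bar is the mean and SD of 7 libraries. DDIT4 is separated between the groups, with a lowest GF value of 116 and a highest SPF value of 72.9, while the groups overlap in each of the 7 members.

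The observed size that would have passed differed between members. With the spread each gene had, the log2 difference needed to pass, at the largest p that was called (0.00338), ran from 0.355 for PIK3CD to 1.60 for FNIP1, with a median of 0.769. An observed 2-fold difference would have been enough in 27 of the 35 members and an observed 1.5-fold difference in 10. A true difference of such a size could still be missed, since estimates spread around it. The 95% interval lay within 1.5-fold in either direction for 10 members and within 2-fold for 26, and it reached past 2-fold for 9. The 2-fold bounds thus hold for PIK3CD, PIK3CG, RPTOR, RRAGC, RHEB, GSK3B and AKT1 but not for DEPTOR, FNIP1, TSC1, NPRL2 or MLST8. Means of the tested members lay between 12.8 and 576 normalized counts, with 25 of them between 10 and 100.

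**Figure D3:**
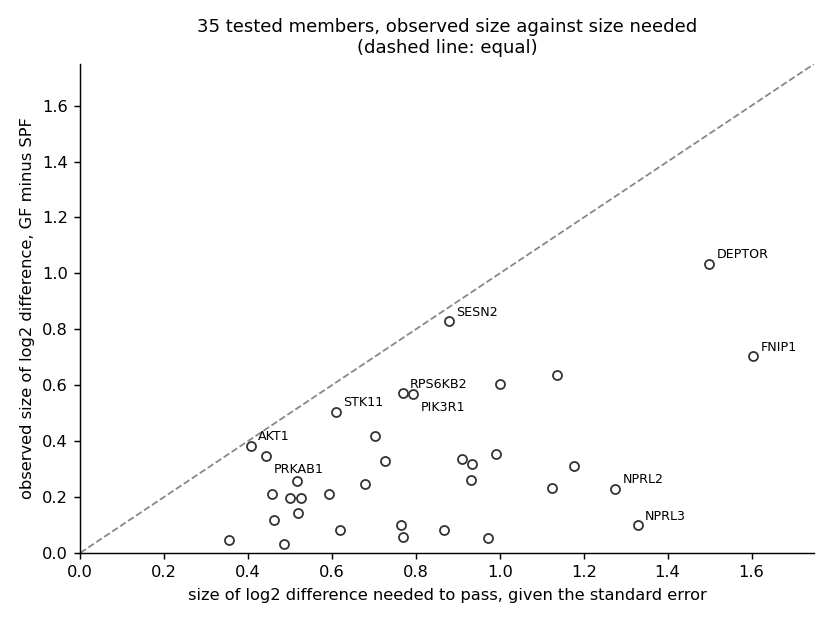
Size of the log2 difference observed for each of the 35 tested members (vertical) against the size needed to pass given its standard error (horizontal); the dashed line marks equality. Every member lies under the line, which follows from none having passed, with SESN2 and AKT1 closest to it.

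Levels of DDIT4 spread widely within each group, so each member was set against DDIT4 within each group over its 7 libraries. Of 70 such relations (35 members in 2 groups), 0 passed after adjustment for Pearson's r (smallest exact permutation adjusted p = 0.835 over all pairings) and 0 for Spearman's rho (smallest 0.841). With 7 libraries per group and 70 relations, only a very tight relation could have passed. These counts thus do not show that the members and DDIT4 were unrelated. Unadjusted, 1 had a Pearson p under 0.05 and 0 a Spearman p under 0.05. It was NPRL3 in GF, with r = -0.81 (exact permutation p = 0.0191) and rho = -0.71 (exact permutation p = 0.0881), and r was -0.58 without GF 3 and GF 4, the libraries farthest from the DDIT4 median. TSC1, on whose complex DDIT4 acts, had r = -0.71 and rho = -0.68 in GF (exact permutation p = 0.0849 and 0.110), with r = -0.70 without those libraries, against r = -0.37 and rho = -0.07 in SPF (exact permutation p = 0.425 and 0.906). PIK3R1 had r = 0.70 and rho = 0.57 in GF (exact permutation p = 0.0601 and 0.200), where r was 0.14 without GF 3 and GF 4. In SPF its r was 0.66 and its rho 0.54 (exact permutation p = 0.0917 and 0.236), with r = 0.21 without SPF 2 and SPF 4, so both relations of PIK3R1 rested on the libraries left out. SESN2 had r = 0.21 and rho = -0.11 in GF and r = 0.51 and rho = 0.68 in SPF (exact permutation p = 0.689, 0.840, 0.234 and 0.110). Over the members the median r was -0.10 in GF, with 13 above 0 and 22 below, and 0.03 in SPF, with 18 above and 17 below.

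**Figure D4:**
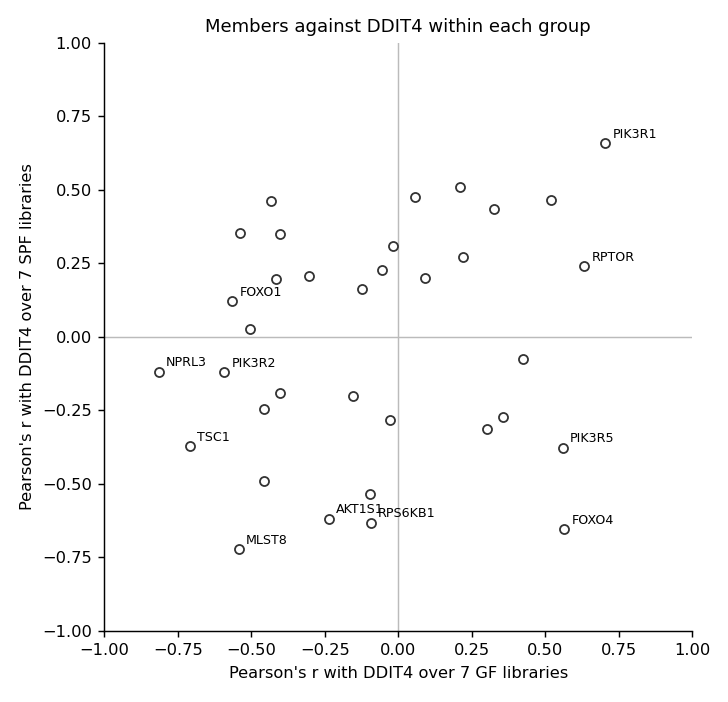
Pearson's r of each of the 35 tested members with DDIT4 over the 7 GF libraries (horizontal) and over the 7 SPF libraries (vertical), on the log2 scale. The points lie in all 4 quadrants, and 20 of the 35 members had the same sign in both groups.

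Beside the members, 125 other genes of the pathway and its surroundings were in the table, and 104 were tested. Of these 11 rose and 2 fell, or 12.5%, with a median log2 difference of 0.02. DDIT4 and 5 of the glucocorticoid-induced genes made up 6 of the 11 rises, and that DDIT4 and genes of this list rose was already known. Without DDIT4 and the whole glucocorticoid list, 5 of 95 rose and 2 fell, or 7.37% against 6.76% of all genes. In the lysosomal list of amino acid sensors, Ragulator and TFEB-family genes, 1 of 19 tested rose and 0 fell, or 5.26% against 6.76% of all genes. TCFEB, the older symbol of TFEB, a transcription factor of lysosomal genes that mTORC1 keeps out of the nucleus, stood at 99.9, 105, 78.7, 116, 139, 119.8 and 105 normalized counts in GF 1 to 7. Against this it stood at 75.1, 52.0, 85.0, 47.6, 59.4, 42.4 and 57.2 in SPF 1 to 7, so that only SPF 3 reached into the GF range. TCFEB rose by a log2 difference of 0.87 ± 0.18 (SE, limma, adjusted p = 0.00398), a call kept in all 28 other settings.

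Among 16 PI3K adaptors, phosphatases and other PI3K genes tested, 0 rose and 1 fell, or 6.25% against 6.76% of all genes tested. INPP5E, a phosphatase that acts on PI3K lipids, fell by 1.04 on the log2 scale, with 7.29, 16.8 and 23.9 normalized counts in GF and 18.2, 35.5 and 49.7 in SPF (limma, adjusted p = 0.0398). It did not pass in 12 of 27 settings, which include leaving out any of GF 1, 2, 5 and 7 and SPF 1, 2, 6 and 7 (limma, adjusted p 0.0560 to 0.0947). Of 11 receptors and ligands upstream of PI3K, 2 rose and 1 fell, or 27.3% against 6.76% of all genes tested. At an unadjusted limma p under 0.05, 4 were higher and 2 lower, or 54.5% against 21.9%. These genes had a median level of 974 normalized counts and a median SE of 0.128, against 41.7 and 0.264 for all genes tested. Smaller differences could thus pass in this list, which was chosen with earlier results of these data known. P2RY12, a purinergic receptor of resting microglia, had 1107, 1460.1 and 1617 in GF and 2156, 2604 and 3184 in SPF, a log2 difference of -0.95 ± 0.09 (SE, limma, adjusted p = 6.98e-07). CSF1R, on whose signal microglia depend, had 16958, 17937 and 20134 in GF and 13857, 15129 and 16301 in SPF, a difference of 0.30 ± 0.06 (SE, limma, adjusted p = 0.00483), which was -0.047 under quantile normalization. The call of CSF1R also ended with no filter on low values and under limma without a trend. TREM2, a lipid receptor that signals through PI3K, rose by 0.28 (limma, adjusted p = 0.0427), but did not pass in 18 of 28 settings. Those include the omission of any of GF 1, 2, 3, 5 and 7 and SPF 1, 2, 3, 4 and 7 (limma, adjusted p 0.0547 to 0.0912), and removal of length and GC trends gave TREM2 a difference of 0.02.

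Downstream of the pathway, 2 of 13 FoxO target genes tested rose and 0 fell, or 15.4% against 6.76% of all genes tested. At an unadjusted limma p under 0.05, 46.2% of the list differed, against 21.9% of all genes. Of these, 3 were higher in GF (TXNIP, CITED2 and CDKN1B) and 3 were lower (CCNG2, IL7R and TRIB1). This list too was chosen with earlier results of these data known, so its shares are no independent support. TXNIP, which restrains glucose uptake, rose by 0.40 (limma, adjusted p = 0.0157), with 581, 629.8 and 804 normalized counts in GF and 452, 492 and 601 in SPF. It did not pass under quantile normalization, under limma without a trend or without GF 1, GF 6 and SPF 2 together (limma, adjusted p up to 0.105). CITED2, a regulator of transcription, rose by 0.57 (limma, adjusted p = 0.0307), but not in 8 of 28 settings, which include leaving out any of GF 3, 5 and 6 and SPF 4 and 7 (limma, adjusted p 0.0555 to 0.0774). Of 11 mTORC1 effectors, 11 genes of mTORC2, mTOR assembly and other AGC kinases, 6 AMPK and LKB1 complex genes and 8 ATF4 and stress-response genes, 0 passed in either direction. The smallest p among the effectors was that of EIF4EBP1, the translation repressor that mTORC1 inactivates, with 80.1, 100.4 and 169.9 in GF and 34.9, 77.5 and 97.8 in SPF, a log2 difference of 0.73 (limma, adjusted p = 0.0527). All 7 GF libraries lay above its SPF median, and it passed in 8 of 28 settings, which include leaving out GF 5 or any of SPF 3, 4 and 6 (limma, adjusted p 0.0309 to 0.129 over the settings). In the AMPK and LKB1 complex list it was that of CAB39, the LKB1 partner MO25, at -0.71 (limma, adjusted p = 0.0635). CAB39 passed in 4 of 28 settings, namely a higher filter on low values, upper-quartile scaling and leaving out GF 1 or GF 7 (limma, adjusted p 0.0403 to 0.223 over the settings). In the remaining lists it was that of RPS6KA3, which encodes the kinase RSK2, at -1.39 (limma, adjusted p = 0.114), and PHGDH, the first enzyme of serine synthesis, at 0.40 (limma, adjusted p = 0.0977), and no setting called either.

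Glucocorticoid-induced genes were listed because DDIT4 is known to be induced by these hormones. They had 5 rises and 0 falls among 8 tested, or 62.5% against 6.76% of all genes tested. The 8 differences ran from -0.89 to 2.09 on the log2 scale, with 7 above 0 and 1 below, so not every gene of the list rose. That genes of this list were higher in GF was known from earlier results of these data, so the count is no independent support. TSC22D3, which encodes GILZ, had 44.3, 107 and 257 normalized counts in GF and 16.0, 21.9 and 39.2 in SPF, a log2 difference of 2.09 ± 0.34 (SE, limma, adjusted p = 0.000343). NFKBIA, the inhibitor of NF-kB, rose by 0.82, SULT1A1, a sulfotransferase, by 1.21, and FKBP5, a chaperone partner of the glucocorticoid receptor, by 0.91. PER1, a clock gene named after its values were seen, was the other rise, by 1.33 (limma, adjusted p = 0.0132). PER1 did not pass under limma without a trend or without GF 1, GF 6 and SPF 2 together (limma, adjusted p up to 0.129).

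**Figure D5:**
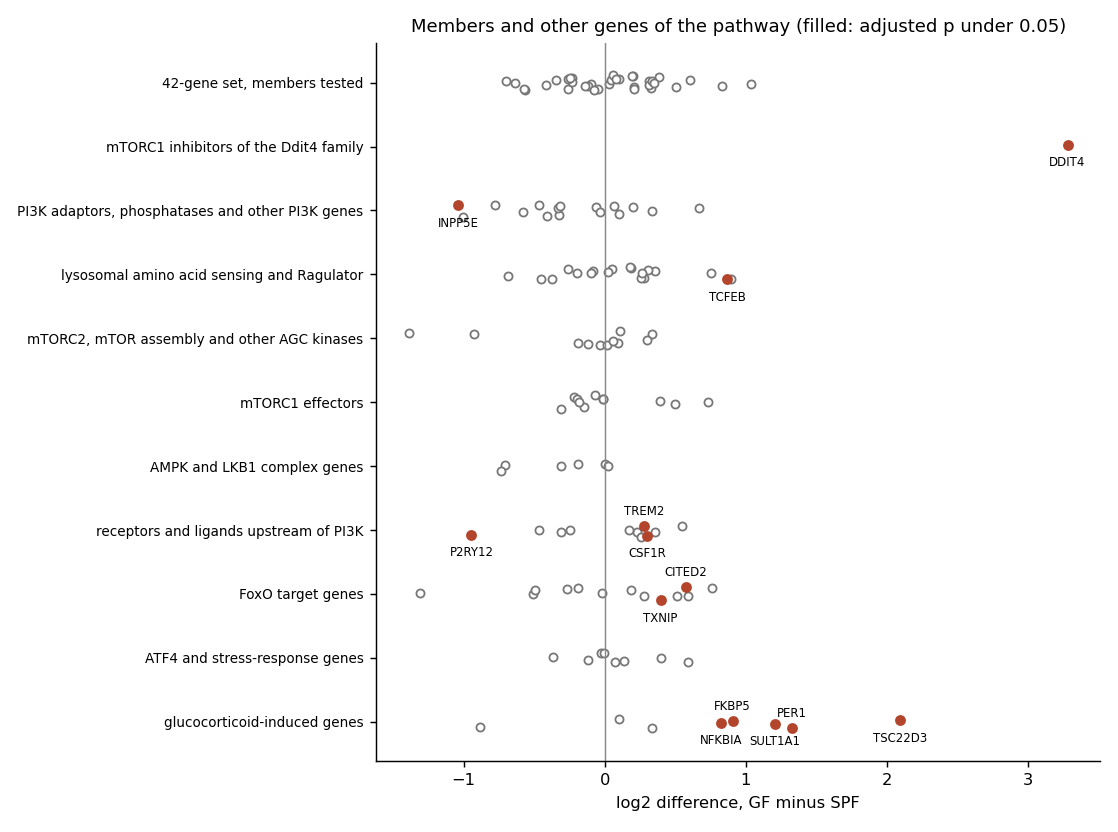
Log2 difference, GF minus SPF, of each tested gene in the 42-gene set and in the 10 other lists; filled points passed (adjusted p under 0.05) and are named. The 35 tested members are all open, DDIT4 stands at 3.28, and 5 of the 13 filled points are glucocorticoid-induced genes.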

How the data were processed

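RNA was measured in 14 libraries of sorted microglia, 7 GF and 7 SPF, grouped by their titles. Per the submitters' processing notes, TopHat was used with the mm9 build, and the sources used here give neither the counter nor the scaling method. Each deposited value is a signal for 1 RefSeq transcript, scaled by the authors and never below 0. Totals per library were 1418526 to 1520780 in GF (median 1488255) and 1356633 to 1432735 in SPF (median 1407335), so this scaling left GF totals mostly higher. Between 84.5% and 86.7% of the values were whole multiples of the library's step (tolerance 0.01 read). The rest were not, so counts could not be recovered and no count test was used. Read equivalents are a library's sum over 1 row per gene, divided by its step. The table held 18487 rows, and 217 without a symbol were named by accession from RefSeq, which matched 18119 rows. Symbols are printed as the table has them.

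Differences are GF minus SPF of log2(value + 1.44), which understates the change of low genes. Genes with a mean of at least 7.22, 5 pseudocounts, were tested by limma 3.58.1 (R 4.3.3, mean trend in the variance, two-sided) and Benjamini-Hochberg adjustment over 8822 genes at a threshold of 0.05. Correlations and marker sums used exact permutation tests, marker sums over 3432 divisions. The procedure was tested on simulated data. The members and gene lists were chosen with earlier results of these data known. Every member is named, with each library's value for the member of each role with the smallest adjusted p. Some genes of the pathway are not reported here and are left out of the lists. Other lists give up to 4 genes past the threshold, or the gene with the smallest p, and PER1 is named beyond this rule. RefSeq promoter windows were found for 4 of the 5 genes looked up, and motifs were searched by exact letters. Alternatives were other pseudocounts, filters, scalings, rows, weights and left-out libraries. The replicate numbers are not stated to pair animals.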

Additional observations from a re-analysis of the deposited data

Results flagged for a closer look

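The highest or lowest library of a group of 7 lay apart from the rest, past Dixon's 95% critical value, in 15 of the 116 groups examined (12.9%). That critical value flags about 1 in 20 groups by chance only where values are normally distributed. Here it was applied to normalized counts without a log transform, and to groups such as RRAGB in SPF, whose other libraries were all equal. Whether 15 flags exceed chance was thus not tested. Among the members the flags were mostly single high libraries, with no library behind more than 2 of the 11 flags. Of the nutrient-sensing genes, RRAGB stood at 5.10 normalized counts in SPF 3, RRAGD at 6.36 in SPF 7 and NPRL3 at 25.2 in GF 4, each the highest of its group, while NPRL2 was lowest in SPF 2, at 5.91. Of the Sestrins, SESN1 reached 277 in SPF 2, SESN2 59.7 in GF 5 and SESN3 7.65 in SPF 3. PIK3CG reached 207 in SPF 5. The AMPK subunit genes PRKAA1, PRKAB1 and PRKAG1 reached 8.48 in SPF 7, 191 in SPF 1 and 225 in GF 1. Among the other genes named, RPS6KA3 reached 33.7 in SPF 6, PHGDH 137 in GF 7, TSC22D3 39.2 in SPF 5 and FKBP5 416 in GF 5.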

How the results depend on the processing

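DDIT4 stayed called in all 28 settings. Leaving out 1 library at a time, the count of members higher in GF ran from 0 to 1, with AKT1, SESN2 or STK11 called as given above. The members lower in GF were 0 in these settings. Removal of length and GC trends, chosen after the data had been seen, gave 1 member lower and 193 genes higher over all genes. limma without a trend gave 160 genes higher and 161 lower over all genes, and 6 other pathway genes higher. Without GF 1, GF 6 and SPF 2, which stood apart in earlier results of these data, the counts were 154 and 166 over all genes and 7 and 1 for other pathway genes. Leaving out 1 library gave 171 (without SPF 7) to 291 genes lower over all genes, 1 to 2 other pathway genes lower, the 1 remaining being P2RY12, and 0 to 2 marker lists passing. CSF1R turned to -0.047 under quantile normalization. Over all genes tested, same-number correlations ran from -0.06 to 0.05 and no library correlated best with its own number. Such values cannot show whether libraries of the same number were handled together. DDIT4 was lowest in number 4 and highest in numbers 5, 6 and 7 in both groups. With a replicate block DDIT4 passed at an adjusted p of 4.01e-09 (limma), 0 members passed and other pathway genes lower were 1. Of 1414 values over the settings for the 52 genes that the naming rule gives, which leaves out PER1, 1353 kept their direction and side of the threshold, 43 lost a call, 17 gained one and 1 reversed. There were also 31 sign changes of uncalled values, in 11 genes, all of them members. Signs turned in 5 settings for MTOR, PIK3CD and RRAGC, in 4 for NPRL3 and in 3 for FOXO4 and PIK3R2. They turned in 2 settings for RICTOR and in 1 for AKT1S1, GSK3B, PDPK1 and RHEB. Of the members tested, 25 had means of 10 to 100, and 6 members were below the level for a test. How far depth limits their calls was not tested.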
